A study of Mus musculus with 24 samples.

Results

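The Sirt7 bin is the 1 Mb stretch of mouse chromosome 11 from position 120000001 to 121000000 (build mm10) that holds the gene Sirt7, and it is 1 of 2645 bins of chromosomes 1 to 19 and X in the deposited count tables. It was chosen by its position alone and was read against its 5 neighbours, the bins that start at 116, 117, 118, 119 and 121 Mb. The partial bin that ends the chromosome held no reads. The cells were female, of a C57BL6/CAST hybrid strain and a type labelled TTF, and every sample, controls included, is labelled as given 5 Gy of X-rays with 30 min of recovery. The cells compared were wild type (WT), SIRT7-KO, SIRT7-KO clones c22 and c9 with or without SIRT7-WT (called KO clones and KO+S7WT clones), and SIRT7-HY clones c5 and c7. The labels leave HY unexplained and give neither the form nor the insertion site of the SIRT7-WT sequence. Each of these was profiled by chromatin immunoprecipitation sequencing of H2AX and of its phosphorylated form γH2AX, with input DNA for WT and KO cells, as 24 samples in 12 groups of 2. Reads had also been sorted by parental genome. Counts per bin hold no marker gene levels against which the cell type could be checked. The labels do not state which parent is called genome1 and which genome2. Each clone group comprises 2 clones, and the labels do not say which cells they were derived from. By name, the KO and KO+S7WT groups hold the same 2 clones, c22 and c9.

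SIRT7 is a nuclear NAD-dependent deacylase of the sirtuin family that acts on histones and other chromatin proteins and is concentrated in the nucleolus. H2AX is a histone variant spread through chromatin, and its phosphorylation to γH2AX marks large domains around DNA breaks. Input is sheared chromatin without an antibody, so its reads follow the amount of DNA, and in a hybrid the reads that cover a sequence difference between the parents tell which parental copy of a region they came from.

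Sirt7 itself (gene ID 209011) lies at chr11:120618371-120625014, on the minus strand, and its 6644 bases are 0.664% of the bin. The bin holds 62 annotated genes, 46 of them protein coding. Among them are Actg1 (cytoplasmic gamma actin), Hgs (endosomal sorting), Pcyt2 (phosphatidylethanolamine synthesis), Mafg (a small Maf transcription factor), Fasn (fatty acid synthase) and Csnk1d (casein kinase 1 delta). Sirt7 sits between Pcyt2, which ends at 120617947, and Mafg, which starts at 120625117. The 102 bases that separate Sirt7 from Mafg, chr11:120625015-120625116 (minus strand, RefSeq, GRCm38.p6), are shown because they are the whole of the gap upstream of the gene and show how little of the bin the locus takes. CG dinucleotides are in capitals.
Upstream of Sirt7: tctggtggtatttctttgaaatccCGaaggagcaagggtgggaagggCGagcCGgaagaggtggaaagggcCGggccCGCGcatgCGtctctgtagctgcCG
This stretch holds 8 CG dinucleotides, the same on both strands, with a GC content of 61.8%. In the stretch of the same length before the start of 32851 mouse genes the median was 3, and 26.5% held at least 8. A value of the bin cannot be placed on this sequence or on Sirt7, since a 1 Mb count does not resolve a single gene.

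Total γH2AX reads per library ranged from 191854247 to 251858055 for WT and KO cells (first table) and from 70349148 to 248337642 for the clones and WT (second table), with a median bin of 24905 to 85451 reads. Counting error is small at that depth, and the spread between libraries sets the precision. The 2 libraries of a group in the first table are named NT and Xray, although the labels call all samples irradiated. They were taken as 2 replicates. If NT means not treated, the 2 libraries differ in treatment, and their difference is not a replicate spread alone. The NT-named γH2AX library of WT was identical to WT replicate 2 of the second table in 2645 of 2645 bins, so the KO and clone comparisons share that WT library. The Xray-named WT input and H2AX libraries matched neither second-table replicate (61 to 64 of 2645 bins identical). Together the tables thus hold 3 different γH2AX libraries of WT, and at least 3 of input and of H2AX. The labels list 2 WT samples per assay. No NT-named WT input or H2AX library was among those compared. The labels do not call WT or KO replicates separate cultures. A p-value of theirs thus covers the spread of these libraries, possibly a technical one. Counts per parental genome were used for 1 input and 1 H2AX library of KO (both Xray-named), for 1 H2AX library of each clone group (the one named replicate 1), and for WT. Which of the 2 clones carries which replicate number is not stated. Reads of these libraries are given as RPM, scaled to a total of 1000000 genome1 plus genome2 reads on chromosomes 1 to 19. Their intervals are 95% exact intervals and cover counting error only.

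In WT cells both parental copies of the Sirt7 bin were present in equal amounts. The share of genome2 among parental reads was 49.4% ± 0.33 (SD, n = 2) in input, 49.6% ± 0.049 in H2AX and 50.8% ± 0.33 in γH2AX. The Xray-named WT libraries gave 49.2% in input and 49.7% in H2AX. Reads that could be assigned to neither parent made up 38.6% ± 4.0 of the bin in input, 35.1% ± 1.9 in H2AX and 37.4% ± 0.99 in γH2AX. That is more than in the bin at 119 Mb, which holds the mTORC1 subunit gene Rptor. There the unassigned share was 30.1% ± 4.2 in input, 26.2% ± 1.5 in H2AX and 29.2% ± 0.99 in γH2AX. The Sirt7 bin had the higher unassigned share in each of the 6 WT libraries.

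In KO cells nearly all genome2 reads of the Sirt7 bin were gone, while genome1 reads were at the WT level. The KO input library held 21985 genome1 reads and 224 genome2 reads in the bin, and the WT input library held 34684 and 33568. Scaled for depth, genome1 stood at 253.6 RPM in KO and 253.2 RPM in WT, a ratio of 1.00 (0.988 to 1.01). Genome2 stood at 2.58 RPM in KO and 245.1 RPM in WT, which is 1.05% of the WT level (ratio 0.0105, interval 0.00921 to 0.012). Its share of parental reads was 1.01% (0.881% to 1.15%) in KO and 49.2% (48.8% to 49.6%) in WT.

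H2AX gave the same picture from a separate library. The KO library held 33581 genome1 reads and 307 genome2 reads, against 37065 and 36559 in WT. Genome1 was at 0.952 of WT (0.942 to 0.962) and genome2 at 0.882% of WT. The H2AX ratios are less precise than their counting intervals, because the WT replicates of the second table differed from each other with an SD of 15.3% for genome1 and 15.5% for genome2. With 1 KO library per assay there was no test, but the genome2 share in KO lay below 2% in both assays and above 49% in all 8 WT libraries.

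**Figure D1:**
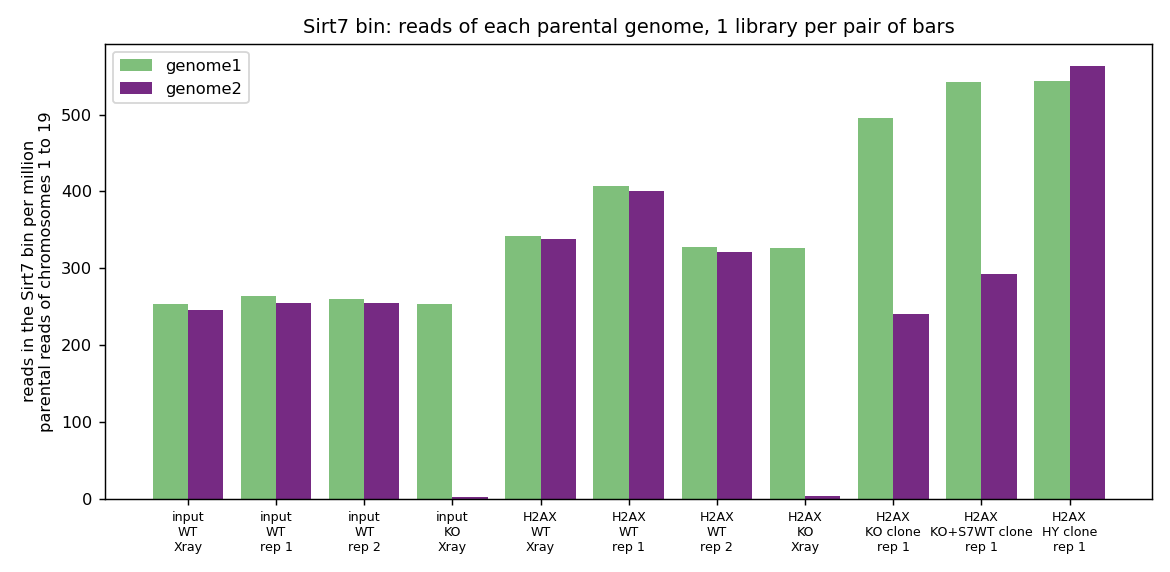
Reads of genome1 (green) and genome2 (purple) in the Sirt7 bin, in RPM of the parental reads of chromosomes 1 to 19 (y axis), with 1 library per pair of bars (x axis). Both bars are near equal in every WT library, the genome2 bar is near 0 in KO input (2.58 RPM) and KO H2AX (2.98 RPM), and it is the shorter bar in the KO and KO+S7WT clones.

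The genome2 share left in KO can be set beside bins where WT itself has little genome2. WT input had 24 bins with a genome2 share under 5%, all on chromosome 2, in which the share ran from 0.264% to 3.86% with a median of 1.29%. The 1.01% of the Sirt7 bin in KO input lies inside that range, as does the 0.906% in KO H2AX (the WT range in H2AX is 0.243% to 3.9%). Those bins were picked by a share under 5%, so a share as low as that of KO had little room to fall outside the range. What these residual reads are was not tested.

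The loss was a stretch at the end of chromosome 11, not the gene or the bin alone. In KO input the genome2 share was 3.99% in the bin at 118 Mb, 0.584% at 119 Mb, 1.01% in the Sirt7 bin and 1.55% at 121 Mb, the last bin with reads. In KO H2AX it was 4.48%, 0.553%, 0.906% and 1.42%. These 4 bins were the only autosomal ones off chromosome 2 under 5% in either KO library. They hold Timp2 (a metalloproteinase inhibitor) at 118 Mb, Rptor at 119 Mb, and Foxk2 (a forkhead transcription factor) and Tbcd (a tubulin folding cofactor) at 121 Mb. Summed over the 4 bins, genome2 stood at 0.0175 of WT in input and 0.018 in H2AX, and genome1 at 0.99 and 0.976.

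The step fell inside the bin at 117 Mb. That bin holds Tk1 (thymidine kinase), Birc5 (survivin) and Socs3 (a cytokine signalling inhibitor). Its genome2 share was 49.4% in KO input, and its genome2 reads were at 0.82 of WT in input and 0.806 in H2AX. The bin before it, at 116 Mb, holds Sphk1 (sphingosine kinase) and Srsf2 (a splicing factor) and had genome2 at 1.68 of WT in both assays. The bin after it was at 0.036 and 0.0396. Measured against the levels at 116 and 119 Mb, the bin at 117 Mb kept 48.6% of the genome2 reads in input and 47.8% in H2AX. A 1 Mb count does not tell a single step inside this bin from falls at its edges. Genome1 stayed close to WT throughout, at 1.00, 0.997, 0.955, 0.991, 1.00 and 1.01 in input from 116 to 121 Mb.

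**Figure D2:**
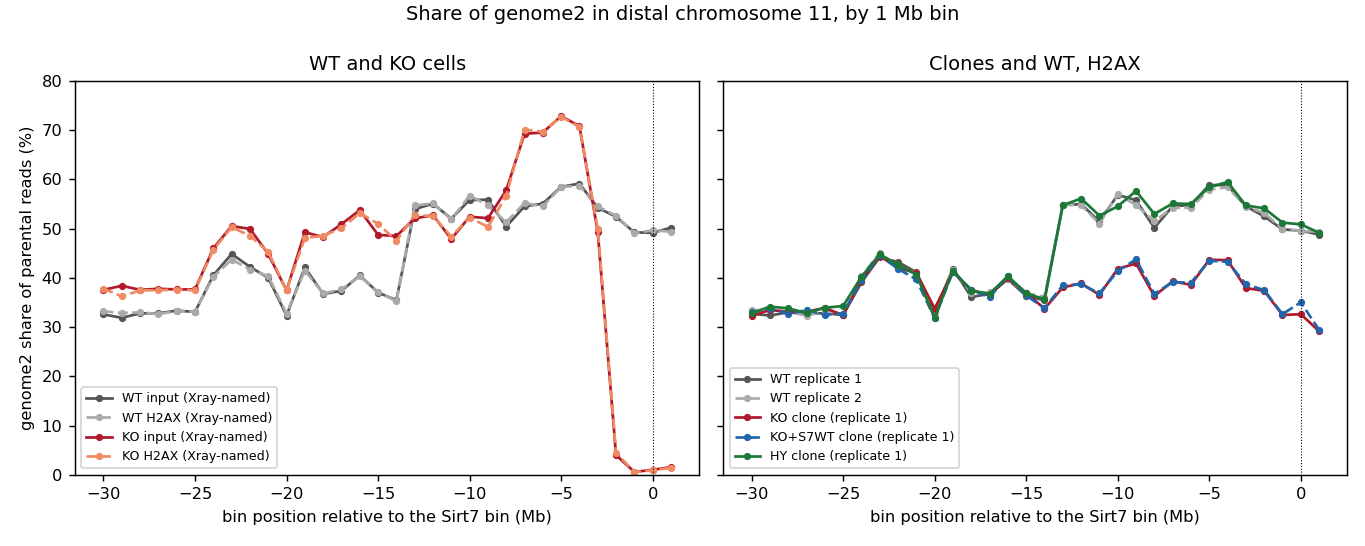
Share of genome2 among parental reads (y axis, %) in 1 Mb bins of the last stretch of chromosome 11, by distance from the Sirt7 bin (x axis, Mb, dotted line at 0), 1 library per line. In KO cells (left) input and H2AX rise together to about 70% and then fall to near 0 over the last 4 bins, whereas the KO and KO+S7WT clones (right) stay lower than WT from 13 Mb before the bin onward without falling to 0.

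The lost stretch followed one in which KO cells had more genome2 than WT. From 91 to 117 Mb, genome2 was at 1.42 of WT in input and 1.41 in H2AX, against 1.27 and 1.26 below 90 Mb. In KO input the genome2 share rose from 57.8% at 112 Mb to 69.3% at 113 Mb and was 70.9% at 116 Mb. In WT input it was 54.5% at 113 Mb and 59.2% at 116 Mb. WT had a step of its own on this chromosome, from 35.5% at 106 Mb to 54.0% at 107 Mb in the Xray-named input. The even share of the Sirt7 bin in WT thus held within a distal part of chromosome 11 and not along all of it, since the share over the bins below 90 Mb was 39.9%.

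The γH2AX signal of the Sirt7 bin was 2-fold lower in KO cells, and so were the bins beside it that had lost genome2. Values in CPM (counts scaled to a library total of 1000000 with edgeR's TMM factors) in the Sirt7 bin were 258 and 283 in the NT-named and Xray-named KO libraries. They were 519 and 564 in the corresponding WT libraries. Both KO libraries lay below both WT libraries, and the NT-named and Xray-named libraries differed by 0.13 (KO) and 0.12 (WT) on the log2 scale. The log2 difference was −1.00 (SE 0.0704, adjusted p = 0.00845 in edgeR's quasi-likelihood F test with Benjamini-Hochberg adjustment over 2582 bins). Over the alternative settings the adjusted p ran from 5.56e-43 to 0.0205. A lower γH2AX count was called in 341 of the 2582 bins (13.2%) and a higher one in 578 (22.4%), so a call as such is common in this comparison. With the NT or Xray name as a block, 916 were lower and 881 higher. With library totals of the autosomes in place of TMM, the calls were 413 higher and 381 lower. Among all bins, the Sirt7 bin ranked 93 and 73 by γH2AX in the 2 WT libraries and 2273 and 1868 in the KO libraries.

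The neighbours divided as the genome2 reads did. The bins at 118 and 119 Mb fell by 1.00 each on the log2 scale (SE 0.0682 and 0.0885, adjusted p = 0.00845 and 0.0149 in edgeR), and the last bin, at 121 Mb, fell by 1.21 (SE 0.048, adjusted p = 0.000943). The bin at 117 Mb had −0.19 and did not pass (adjusted p = 0.0936, with 0.0217 in DESeq2 and 0.00438 with the block). The bin at 116 Mb rose by 0.42 (SE 0.0832, adjusted p = 0.0193).

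Set beside the DNA, the γH2AX differences were close in size to those of the summed parental reads. In the Sirt7 bin, genome1 and genome2 together stood at 51.4% of WT in KO input (log2 −0.96) and 48.4% in H2AX (−1.05), against −1.00 in γH2AX. From 116 to 119 Mb the input values were 0.49, −0.15, −1.08 and −0.98 on the log2 scale, and the γH2AX values were 0.42, −0.19, −1.00 and −1.00. The γH2AX values rest on total counts, which include unassigned reads, and the others on parental reads alone. The scalings also differ (autosomal parental reads for input, TMM for γH2AX), and with 1 KO input library the difference between the assays was not tested. The last bin stood apart, with −0.96 in input, −0.93 in H2AX and −1.21 in γH2AX.

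The last bin also differed between the parents in WT γH2AX. Its genome2 share was 58.4% ± 0.96 (SD, n = 2) in γH2AX against 50.0% ± 0.51 in input and 49.1% ± 0.41 in H2AX. The γH2AX libraries did not overlap the others, but 2 against 2 cannot give an exact permutation p below 0.333, which is the value found (two-sided). Genome1 alone therefore supplied 41.6% of the WT γH2AX parental reads there, which is −1.27 on the log2 scale. In the Sirt7 bin genome1 supplied 49.2% of them, or −1.02. The KO differences of these bins, from total counts that include unassigned reads, were −1.21 and −1.00. At 118 and 119 Mb genome1 supplied 46.5% (−1.11) and 49.9% (−1.00), and the KO difference was −1.00 in each, so of the 4 bins the one at 118 Mb had the widest gap.

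**Figure D3:**
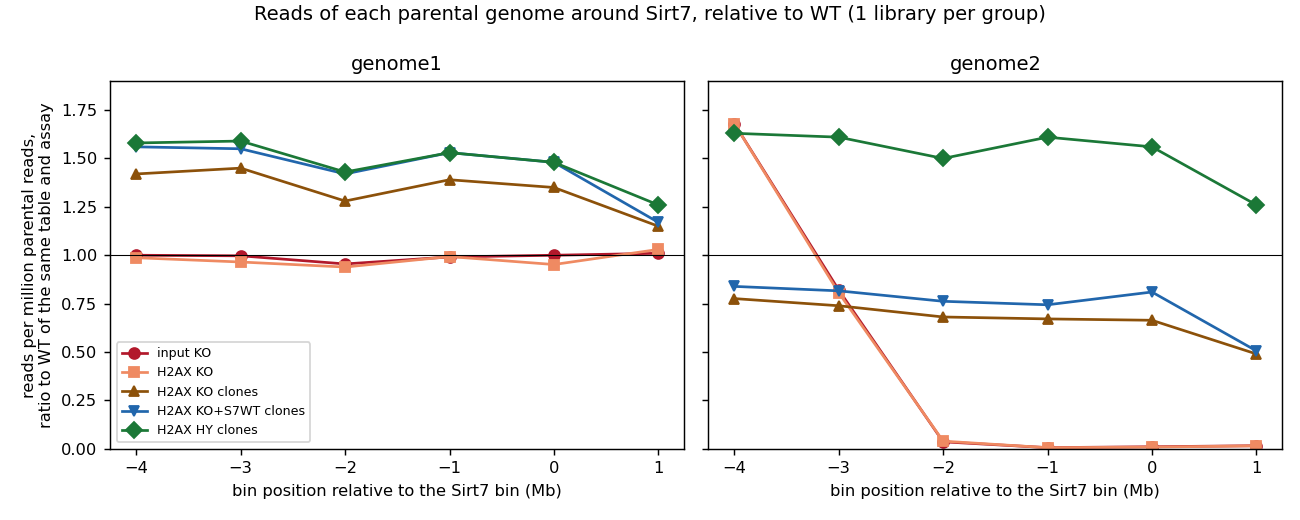
Reads of genome1 (left) and genome2 (right) in the 6 bins around Sirt7 as a ratio to WT of the same table and assay (y axis), by distance from the Sirt7 bin (x axis, Mb), 1 library per line, with WT at 1. KO input and H2AX hold genome1 near 1 across the window and drop in genome2 from 1.68 to near 0, while every clone line keeps both genomes.

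The KO clone with parental counts did not show this loss. Parental counts of the other KO clone were not analysed. In the H2AX library of a KO clone the Sirt7 bin held 32693 genome1 reads and 15835 genome2 reads, a genome2 share of 32.6% (32.2% to 33.1%). WT H2AX libraries of the same table had 49.6% and 49.5%. Relative to the WT mean, genome1 was at 1.35 (1.33 to 1.36) and genome2 at 0.664 (0.654 to 0.674), and together they were at 101% of WT. The shares of the 2 parents had thus shifted toward genome1, with the sum of parental reads close to the WT mean. That sum is no more precise than the 2 WT libraries behind the mean, with their SD of 15.3% (genome1) and 15.5% (genome2). The shift exceeded the 15.3% and 15.5% spread of the WT libraries, but with 1 library of 1 clone it was not tested.

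The shift covered the whole distal part of the chromosome. The KO clone had the WT share up to 106 Mb, at 33.7% against 35.4% and 36.1% in WT H2AX. At 107 Mb WT stepped to 54.8% and 54.9% and the KO clone to 38.1%. The clone was at 43.6% at 116 Mb, 32.5% at 119 Mb and 29.2% at 121 Mb. Sirt7 thus lay in a stretch of altered parental balance in the KO clone also. That stretch begins about 10 Mb before the genome2 loss of KO cells and keeps H2AX reads of both parents. The balance of KO cells was also altered nearer the start of the chromosome. Below 90 Mb genome2 was at 1.26 of WT in KO H2AX and at 0.997 in the KO clone. Whether the shift is one of DNA or of H2AX cannot be told apart, since clone input was not analysed. The ratio of the Sirt7 bin to the bin at 119 Mb was 0.878 for genome2 and 0.871 for genome1 in the KO clone. In WT H2AX libraries of the same table it was 0.888 and 0.886 (genome2) and 0.896 and 0.899 (genome1).

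The KO+S7WT library resembled the KO clone along the chromosome, except for genome2 in the Sirt7 bin itself. Both groups hold clones c22 and c9 by name, so the 2 libraries may be of 1 clone. It held 41783 genome1 and 22525 genome2 reads there, a genome2 share of 35.0% (34.7% to 35.4%). Its share was 32.6% at 119 Mb, beside 32.5% in the KO clone, and 29.5% at 121 Mb, beside 29.2%. The ratio of the Sirt7 bin to the bin at 119 Mb was 0.965 for genome2. It was 0.859 to 0.888 in H2AX of the KO clone, the HY clone and both WT libraries of the same table. The Xray-named WT H2AX library had 0.91, and WT γH2AX replicates 1 and 2 had 0.932 and 0.938. For genome1 it was 0.868, beside 0.871 in the KO clone. The genome2 ratio of the KO+S7WT library was thus the highest among the libraries named here. With 1 library in each group this has no replicate check.

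The HY library had an unadjusted genome2 share close to WT and raised amounts of both parents. The Sirt7 bin held 34331 genome1 and 35567 genome2 reads, a share of 50.9% (50.5% to 51.3%). Relative to WT, genome1 was at 1.48 and genome2 at 1.56, where the WT libraries had an SD of 15.3% and 15.5%. Genome1 was also at 1.48 in the KO+S7WT library and 1.35 in the KO clone, with genome2 at 0.81 and 0.664. This was no property of the Sirt7 bin, since genome1 was at 1.43 to 1.59 and genome2 at 1.50 to 1.63 in the other bins from 116 to 119 Mb. Whether this reflects DNA or H2AX cannot be told apart here, since clone input was not analysed.

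The total γH2AX count of the Sirt7 bin stood out in the KO+S7WT clones. Its CPM was 2060.1 and 9589 in the 2 KO+S7WT libraries (200240 and 678162 reads). It was 566 and 399.7 in the KO clones, 715 and 598 in the HY clones, and 669.8 and 545 in WT. Both KO+S7WT libraries lay above all 6 others, and they differed from each other by 2.22 on the log2 scale, beside 0.26 to 0.50 in the other groups. The bin ranked 5 and 2 among 2582 bins in these libraries and 37 to 576 in the other 6.

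**Figure D4:**
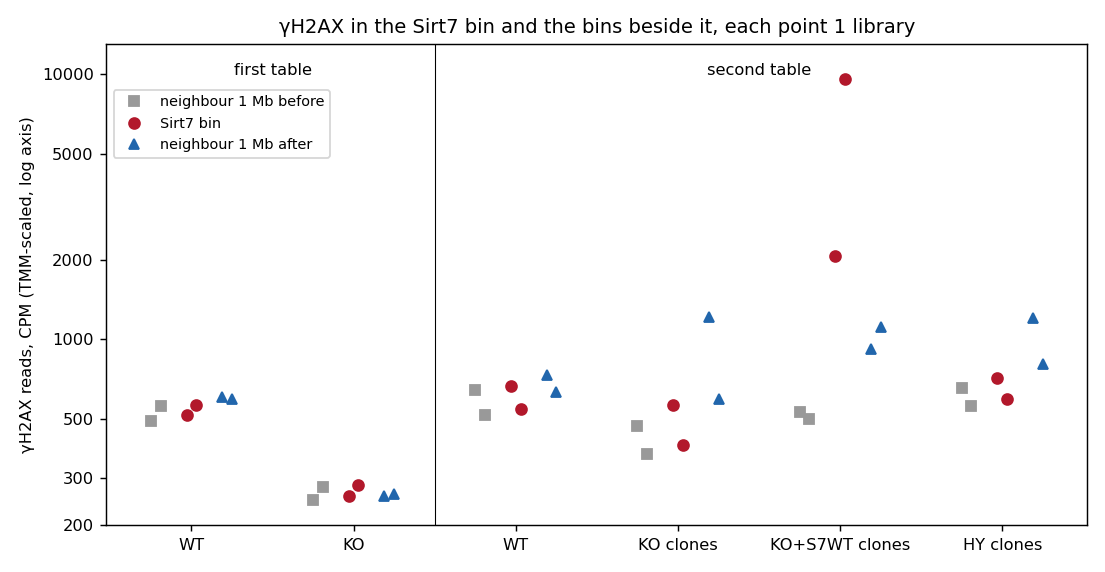
γH2AX reads in CPM (y axis, log scale) in the Sirt7 bin (red circles), the bin before it (grey squares) and the bin after it (blue triangles), 1 point per library, grouped by kind of cell and table (x axis). The Sirt7 bin of the 2 KO+S7WT libraries sits at 2060.1 and 9589 while the bin before it stays at 534 and 502, and all 3 bins are lower in KO than in WT cells.

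Among the 6 bins of the window an increase of this size was seen only in the Sirt7 bin. Relative to the mean of the 4 bins before it, the Sirt7 bin had 4.11 and 20.0 times as many γH2AX reads in the KO+S7WT libraries. In the other 6 libraries of the table the ratio was 1.06 to 1.28 with a mean of 1.13. At that mean ratio, 145000 reads (72.6% of the bin) and 640000 reads (94.4%) were in excess. A stretch of the length of Sirt7 would hold 365 and 254 reads if the rest were spread evenly over the bin, so the excess came to 398 and 2520 times that number. Where in the bin these reads lie cannot be read from a 1 Mb count, and whether they come from the carried sequence was not tested. The parental and unassigned γH2AX counts of these libraries and the total H2AX counts were not analysed here.

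The 6 pairs of groups in the second table were tested in 1 fit of all 8 γH2AX libraries, with the groups sharing an estimate of spread. Clones c22 and c9 are in both the KO and the KO+S7WT group, a pairing that this fit leaves out. KO+S7WT clones were above KO clones by 3.59 on the log2 scale (SE 0.507, adjusted p = 0.0205 in edgeR, 3.94e-71 to 0.993 over the alternatives). The Sirt7 bin was the only 1 of 2582 bins called higher (0.0387%), 12 bins had an unadjusted p at or below the threshold, and DESeq2 also called 1. KO+S7WT clones were above WT by 3.26 (SE 0.499, adjusted p = 0.00683, 2.34e-61 to 0.571), where 4 bins were called higher (0.155%). HY clones were below KO+S7WT clones, at −3.15 (SE 0.497, adjusted p = 0.0198, 4.49e-59 to 0.328), where 41 bins were called lower (1.59%). With the replicate number as a block all 3 calls of the Sirt7 bin were kept (adjusted p = 0.000252, 0.000169 and 0.000114 in edgeR), and 1, 170 and 110 bins were called in these directions.

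These calls depended on which libraries entered the fit. The difference from KO clones was 2.09 without KO+S7WT replicate 2 and 4.30 without replicate 1. It stayed between 3.58 and 3.60 without either HY or either WT library, but no longer passed, with adjusted p = 0.485 and 0.493 (HY replicates 1 and 2) and 0.876 and 0.383 (WT replicates 1 and 2) in edgeR. The difference from WT failed without the same 4 libraries (0.0757, 0.0744, 0.286 and 0.571), as did that from HY (0.328, 0.0939, 0.0732 and 0.0763). With the 2 compared groups alone in the fit, the difference from KO clones was 3.60 and did not pass (adjusted p = 0.948).

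No other pair passed in the Sirt7 bin. KO clones against WT gave −0.33 (SE 0.458, adjusted p = 0.824 in edgeR), in a comparison with 10 bins called lower (0.387%). HY against KO clones gave 0.44 (SE 0.458, adjusted p = 0.77). In that comparison edgeR called 0 bins higher (0%) and 0 lower, 224 had an unadjusted p at or below the threshold, and DESeq2 called 113. HY against WT gave 0.11 (SE 0.457, adjusted p = 0.915), with 0 bins called higher by edgeR (0%), 1 by DESeq2, and 141 in either direction at the unadjusted p. It turned negative without HY replicate 1 (−0.030) or WT replicate 2 (−0.084). With the replicate block the Sirt7 bin passed in none of the 3 pairs (adjusted p = 0.642, 0.508 and 0.859 in edgeR), while 138 bins were lower in KO clones against WT, and 80 and 13 higher in HY against KO clones and against WT. The SE near 0.46 comes from the fit in which all groups share an estimate of spread, the KO+S7WT group included. In the Sirt7 bin, replicates differed on the log2 scale by 2.22 (KO+S7WT clones), 0.50 (KO clones), 0.26 (HY clones) and 0.30 (WT). This SE is thus not the spread of the compared libraries alone, and it leaves room for sizeable differences in these pairs. With only the compared groups fitted, the 3 pairs did not pass either (adjusted p = 0.276, 0.669 and 0.885 in edgeR).

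The neighbours showed no such increase. In KO+S7WT against KO clones, the bins from 116 to 119 Mb were at 0.25 to 0.33 and the last bin at 0.16 on the log2 scale, each with an adjusted p of 0.993 in edgeR. KO clones against WT had −0.50, −0.48, −0.55 and −0.47 from 116 to 119 Mb, with adjusted p from 0.306 to 0.334 in edgeR. DESeq2 called the first 3 of these lower, at −0.51, −0.49 and −0.57 (adjusted p = 0.0284, 0.0376 and 0.0196), and edgeR with the replicate block called all 4 lower (0.00162 to 0.00353). HY clones against KO clones had 0.51 to 0.57 over the same 4 bins, with adjusted p from 0.125 to 0.142 in edgeR, and DESeq2 called all 4 higher (0.0159 to 0.0354), as did edgeR with the replicate block (0.000881 to 0.000986). Over 118 and 119 Mb the difference of KO cells from WT, −1.00 in each bin, was larger in size than that of the KO clones, and the 2 tables were not joined in a fit to test it.

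The last bin was the highest of the window in every second-table library outside the KO+S7WT group. Its γH2AX CPM was 1217 and 595 in the KO clones, 1199 and 807 in the HY clones, 923 and 1107 in the KO+S7WT clones, and 733 and 636 in WT. Relative to the mean of the bins from 116 to 119 Mb this was 1.16 to 2.75 times. One KO clone lay above both WT libraries and the other below both, and that pair differed by 0.40 (adjusted p = 0.54 in edgeR). Both KO+S7WT libraries and both HY libraries lay above both WT libraries. KO+S7WT clones against WT had 0.57 (SE 0.263, adjusted p = 0.423 in edgeR), and HY clones against WT 0.55 (SE 0.263, adjusted p = 0.649). None of the 6 pairs passed without the replicate block, and with it KO+S7WT clones against WT did (0.60, adjusted p = 0.0375).

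Bins of the other sirtuin genes gave no such values. Sirt1 and Sirt6 (nuclear deacylases, both on chromosome 10), Sirt2 (mainly cytoplasmic, chromosome 7) and Sirt3, Sirt4 and Sirt5 (mitochondrial, chromosomes 7, 5 and 13) lie in 6 bins. In γH2AX of KO against WT cells, the bins of Sirt1 (0.39, adjusted p = 0.0151 in edgeR) and Sirt6 (0.37, adjusted p = 0.0409) rose, 2 of 6, and none fell, beside 22.4% of all bins higher and 13.2% lower. A count of 2 in 6 bins is no result about sirtuin loci at that background. Those of Sirt2, Sirt3, Sirt4 and Sirt5 were at −0.06, −0.06, −0.24 and −0.01. The call of Sirt6 was lost with autosomal scaling (adjusted p = 0.0894), and DESeq2 also called the bins of Sirt3 (−0.07, adjusted p = 0.0234) and Sirt4 (−0.25, 0.0238) lower, as did edgeR with the block (0.00643 and 0.00654). In the second table none of the 6 passed in any pair with TMM scaling and no block. The Sirt6 bin had 0.45 in KO+S7WT clones against WT (adjusted p = 0.168 in edgeR) and passed there with the replicate block (0.46, adjusted p = 0.00318), with autosomal scaling (0.55, 0.0467) and in DESeq2 (0.44, 0.0305).

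Parental shares did move at other sirtuin loci, but none approached 0. In input the genome2 share was 64.6% in KO and 33.5% in WT at the Sirt2 bin, and 65.3% and 34.4% at the Sirt3 bin. It was 40.4% and 48.7% at Sirt4, and within 4 points of WT at Sirt1, Sirt5 and Sirt6. The H2AX library of the KO clone had 66.9% and 67.0% at Sirt2 and Sirt3, as high as in KO cells, beside 32.6% at Sirt7. KO cells and the KO clone thus shared the altered balance at chromosome 7 and differed at the Sirt7 bin, over 1 library each. The Sirt7 bin was not alone in this. In H2AX the share was 42.1% in KO cells and 49.9% in the KO clone at Sirt1, with 40.6% in Xray-named WT. It was 39.6%, 48.8% and 48.8% in the same order at Sirt4, and 43.2%, 49.7% and 41.6% at Sirt6. At Sirt5 it was 48.5%, 50.2% and 50.4%.

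Over the 8 γH2AX libraries of the second table, the bins outside the window whose log2 CPM was most like that of the Sirt7 bin were at 98 Mb of chromosome 11 (Pearson r = 0.749), at 108 Mb of chromosome 13 (r = 0.735) and at 97 Mb of chromosome 11 (r = 0.728). The first holds Erbb2 (a receptor tyrosine kinase) and Top2a (topoisomerase II alpha). Its CPM was 467 and 468 in the KO+S7WT libraries and 370 to 433 in the other 6. In all 3 bins the 2 KO+S7WT libraries had the highest CPM. The correlations are a description over 8 libraries of 4 groups.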

How the data were processed

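Chromatin immunoprecipitation sequencing of H2AX and γH2AX and input DNA was deposited by the authors as raw read counts per 1 Mb bin (mm10, per the submitters' processing notes), total and per parental genome, in 2 tables. Those notes list Bowtie2 (version 2.2.9) and SAMtools (version 0.1.19) among the tools, with MACS2 (version 2.2.7.1), deepTools (version 2.4.2), Trimmomatic (version 0.36) and FastQC (version 0.11.3). How reads were assigned to bins or parental genomes, and how duplicate reads were treated, is not given in the sources used here.

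Each column was given to a sample or group by its name. The analysis drew on 48 of the 144 value columns and left 96 unused. Where columns matched a group but no single sample, a group carried at most as many columns of a table as it has samples. For these, total counts were used for γH2AX and parental counts for 1 library of each other group. The second-table WT libraries matched single samples and were used with total, parental and unassigned counts. Clone input columns match no labelled sample. γH2AX totals (4 and 8 libraries, each table alone) were tested with edgeR 4.0.16 (R 4.3.3), with TMM factors, the quasi-likelihood F test, two-sided, and Benjamini-Hochberg adjustment over the 2582 bins with a mean count of at least 100, at a threshold of 0.05. The biological coefficient of variation was 5.19% and 11.8%. DESeq2 1.42.0 was an alternative. Deviations of like-numbered libraries correlated at 0.189 to 0.854 in all 6 pairs of second-table groups, and at 0.959 for the like-named KO and WT libraries. The highest of the 6, 0.854, was that of KO and KO+S7WT clones, which share the clone names c22 and c9. Which clone carries which replicate number is not stated, and the labels tie the names to no shared day. The main fit thus has no block, and the fit with this block is printed beside results whose call it changes. The code was tested on simulated data. Parental reads were scaled to genome1 plus genome2 reads of chromosomes 1 to 19, with 95% exact binomial or Poisson intervals (SciPy 1.17.1). Other alternatives were autosomal scaling, no filter, a replicate block, leaving out each library, fitting only the compared groups, other WT references and summing the 4 distal bins.

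Named genes were Sirt7, a list of genes of the neighbouring bins (not all of which are reported here), the other 6 sirtuin genes, and the 3 bins most correlated with the Sirt7 bin, with Erbb2 and Top2a added as landmarks. The bin, these lists and the tests were chosen with earlier results of these data known.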

Additional observations from a re-analysis of the deposited data

How the results depend on the processing

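The lower γH2AX of the Sirt7 bin in KO against WT cells held its direction and call under all 9 alternatives (−0.93 to −1.06). Of the 7 comparisons of this bin, only that of HY clones with WT changed sign, to −0.030 and −0.084, without HY replicate 1 or WT replicate 2 (−0.084 to 0.27 over single-library omissions). The 3 comparisons with KO+S7WT clones kept their direction in every alternative and lost the call without single HY or WT libraries, with log2 values over all single-library omissions of 2.09 to 4.30 (against KO clones), 1.76 to 3.95 (against WT) and −3.87 to −1.65 (HY clones against them). Where an omission left 1 library in a group, that library was assumed to vary like the other groups. Summing the 4 distal bins also ended these calls, at 1.83 (adjusted p = 0.993 in edgeR), 1.68 (0.0955) and −1.46 (0.106), since 3 of the 4 bins did not carry the increase. With only the compared groups fitted, KO+S7WT against KO clones had 3.60 (0.948). The cause of the other lost calls was not tested.

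Counts of called bins moved more. KO against WT gave 919 bins, 1413 with DESeq2, and 300 to 715 without a single library (300 without the Xray-named and 558 without the NT-named WT library, 560 without the NT-named KO library). For KO clones against WT the count was 10, with 35 by DESeq2 (9 higher, 26 lower), 37 with the compared groups alone and 2 to 86 without a library. For KO+S7WT against KO clones it was 1, with 0 for the compared groups alone (12 bins in the full fit at the unadjusted p, 1 called by DESeq2) and 0 to 2 without a library. For HY against KO clones it was 0, with 113 by DESeq2 and 0 to 112 without a library. For HY against KO+S7WT it was 42 (1 higher, 41 lower), with 88 by DESeq2 (14 higher, 74 lower) and 0 to 85 without a library. For KO+S7WT against WT it was 12 (4 higher, 8 lower), with 77 by DESeq2 (58 higher, 19 lower), 50 with autosomal scaling (41 higher, 9 lower), 73 for the compared groups alone and 2 to 58 without a library. For HY against WT it was 8, with 15 by DESeq2, 13 for the compared groups alone and 2 to 16 without a library. With autosomal scaling the median of all bins was 0.132, 0.118 and 0.133 in the comparisons of KO, KO+S7WT and HY clones with WT, against 0.00268, 0.0242 and 0.0245 with TMM.

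With the replicate block the Sirt7 bin kept every call (KO against WT −1.00, adjusted p = 0.00214 in edgeR), and the counts became 1797, 372, 1, 184, 140, 244 and 27 in the order above. Calls it changed in the neighbouring and sirtuin bins stand beside those bins.

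In KO input, genome1 relative to WT was 0.914 when scaled to chromosome 11 below 90 Mb, and 0.960 and 0.978 against the WT replicates of the second table, and genome2 was 0.00963, 0.0101 and 0.0101. In KO H2AX, WT replicate 1 of that table as reference gave 0.801 and 0.00743. The genome2 share, adjusted to chromosome 11 below 90 Mb, became 1.17% in KO input, 1.04% in KO H2AX, 42.1% in the KO clone, 44.6% in the KO+S7WT clone and 62.1% in the HY clone, against 59.3% to 59.8% in WT input and H2AX adjusted the same way. Adjusted to the autosomes it was 33.9% (KO clone), 36.3% (KO+S7WT clone) and 50.9% (HY clone), against 53.2% to 53.8% in WT. The HY clone thus lay below WT with this adjustment and above WT with the other. Over the 4 distal bins the unadjusted share was 1.76% (KO input) and 1.84% (KO H2AX). Parental counts rest on 1 library per group outside WT, and no alternative can show how far replicates would differ.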
